A study of Mus musculus with 12 samples.

Results

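The 44 genes described here encode the machinery that copies DNA and the enzymes that supply its building blocks, and they were chosen by symbol as a fixed list of named members. All 44 were found in each of the authors' 3 deposited comparison tables, among 20884 genes that the 3 tables share. The tables came from RNA-seq of mouse bone marrow-derived macrophages, which are macrophages grown out of marrow cells, here from the femurs of wild-type C57BL/6 males aged 8 to 16 weeks. The marrow was cultured for 7 days with 10 ng/mL of the cytokine M-CSF and 10% serum. M-CSF, macrophage colony stimulating factor, is a growth factor for macrophages and their precursors and stayed in the medium of all groups during the experiment. There were 12 libraries in 4 groups of 3, namely cells never given monophosphoryl lipid A (MPLA), cells in MPLA for 4 h, cells in MPLA for 24 h, and cells taken 3 d after MPLA priming had ended. MPLA is a detoxified lipid A that acts through Toll-like receptor 4, the receptor for bacterial lipopolysaccharide. The length of priming in the last group, the harvest time of the control cells, and whether replicate libraries are separate mice or dishes are not stated in the labels. The p-values therefore measure only a spread between libraries that may be technical. Mice lacking MyD88 or TRIF are mentioned in the labels' protocols, but no sample used here is labelled as such. The design asks how transcript levels differ from untreated cells early in exposure, late in exposure and days after it. The same control libraries served all 3 comparisons, and their harvest time is not stated. Any difference in time in culture therefore cannot be told apart from an effect of MPLA.

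DNA replication begins when the origin recognition complex, Cdc6 and Cdt1 load the ring-shaped Mcm2-7 helicase onto DNA in the G1 phase of the cell cycle. Cdc45 and the GINS complex switch the helicase on, polymerases alpha, delta and epsilon copy the strands with the clamp Pcna and its loader, and ribonucleotide reductase, thymidylate synthase and thymidine kinase supply deoxynucleotides. Most of these genes are transcribed around the start of S phase under control of E2F transcription factors, and bone marrow-derived macrophages divide in response to M-CSF. In these bulk RNA samples, fewer dividing cells and less RNA per cell cannot be told apart.

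Because many replication genes are known E2F targets, their promoters were searched, and 6 are shown here, for the members at both ends at 4 h and 3 d and at the low end at 24 h, and for Mcm6. RefSeq promoters of mouse build GRCm38.p6, 300 bases from 250 before the start to 50 after it, were found for 37 of the 44 members, and Gins1, Gins2, Gins4, Mcm4, Pole, Prim2 and Rfc2 had no entry. Cdc6 was the lowest member at 4 h (chr11:98907901-98908200, plus strand), Rfc3 the highest at 4 h (chr5:151651159-151651458, minus strand), Rrm2 the lowest at 24 h (chr12:24708004-24708303, plus strand), Mcm3 the highest at 3 d (chr1:20820263-20820562, minus strand) and Tk1 the lowest at 3 d (chr11:117825965-117826264, minus strand). Mcm6 was the MCM subunit called higher with DESeq2 at each time (chr1:128359656-128359955, minus strand). The sequences run 5′ to 3′ along the gene, and capitals mark matches to the E2F elements TTTCCCGC, TTTGGCGC, TTTCGCGC or TTTGCCGC on either strand, which may overlap. Of the 6 promoters shown 4 hold a match, and those of Rrm2 and Tk1 hold none. In the GENCODE annotation Cdc6 spans chr11:98907801-98923940, so its window lies within the gene's outermost model, while the windows of the other genes shown reach across the annotated 5′ end of the gene.
Cdc6: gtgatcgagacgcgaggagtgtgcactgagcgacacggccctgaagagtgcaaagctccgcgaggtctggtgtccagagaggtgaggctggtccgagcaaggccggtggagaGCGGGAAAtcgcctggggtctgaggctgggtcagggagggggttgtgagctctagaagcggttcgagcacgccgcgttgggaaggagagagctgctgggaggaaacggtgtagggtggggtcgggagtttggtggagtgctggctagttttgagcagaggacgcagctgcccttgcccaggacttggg
Rfc3: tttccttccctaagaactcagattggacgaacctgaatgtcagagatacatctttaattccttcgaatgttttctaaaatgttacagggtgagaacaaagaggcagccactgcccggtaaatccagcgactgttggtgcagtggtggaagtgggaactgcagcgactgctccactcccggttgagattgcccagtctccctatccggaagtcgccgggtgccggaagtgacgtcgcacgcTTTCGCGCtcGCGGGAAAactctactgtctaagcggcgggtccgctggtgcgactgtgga
Rrm2: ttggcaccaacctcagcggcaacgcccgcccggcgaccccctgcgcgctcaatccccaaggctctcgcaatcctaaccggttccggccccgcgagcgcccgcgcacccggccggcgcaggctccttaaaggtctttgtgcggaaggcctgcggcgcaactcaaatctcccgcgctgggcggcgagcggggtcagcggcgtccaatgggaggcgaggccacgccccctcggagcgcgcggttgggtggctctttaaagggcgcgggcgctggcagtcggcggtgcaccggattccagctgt
Mcm3: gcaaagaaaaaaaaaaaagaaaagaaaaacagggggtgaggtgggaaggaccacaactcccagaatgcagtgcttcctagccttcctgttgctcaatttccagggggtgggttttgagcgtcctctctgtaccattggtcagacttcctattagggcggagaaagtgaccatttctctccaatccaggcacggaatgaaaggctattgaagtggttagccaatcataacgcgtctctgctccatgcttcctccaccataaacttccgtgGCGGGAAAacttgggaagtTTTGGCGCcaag
Tk1: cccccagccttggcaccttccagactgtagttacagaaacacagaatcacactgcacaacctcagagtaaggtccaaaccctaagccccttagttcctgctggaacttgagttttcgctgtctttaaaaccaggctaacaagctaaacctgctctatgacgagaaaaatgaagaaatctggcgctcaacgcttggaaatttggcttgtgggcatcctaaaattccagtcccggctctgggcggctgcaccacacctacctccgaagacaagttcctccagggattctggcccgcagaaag
Mcm6: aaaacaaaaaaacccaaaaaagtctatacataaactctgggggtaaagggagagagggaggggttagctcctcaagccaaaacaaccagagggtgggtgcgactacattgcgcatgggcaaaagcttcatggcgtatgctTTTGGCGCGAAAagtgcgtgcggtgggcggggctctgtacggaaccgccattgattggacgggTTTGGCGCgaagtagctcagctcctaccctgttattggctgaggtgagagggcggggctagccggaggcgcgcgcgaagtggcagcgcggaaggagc

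Counted from 0 at the start base, the Cdc6 match began at position -138, the Rfc3 matches at -10 and 0, the Mcm3 matches at 19 and 38, and the Mcm6 matches at -110, -106 and -47, the first pair overlapping. An E2F element was present in the promoter of 14 of the 37 members (37.8%). That compares with 2.60% of the 27025 genes with a promoter in the table and 4.35% of the 10979 of them tested at 4 h. In the lists of related genes described below, 34.4% of other replisome and licensing genes and 30.4% of G1 to S regulators held one. Other nucleotide synthesis and salvage genes held one in 3.03%, and DNA damage checkpoint and repair genes lay in between. The high share was thus not particular to the members. The plain CCAAT box CCAAT, bound by the factor NF-Y, was found in 64.9% of members and 42.2% of the genes tested at 4 h. The cell cycle homology elements TTTGAA and TTCGAA, which are known from promoters of genes active in G2 and mitosis, were found in 18.9% of members and 16.6% of the genes tested at 4 h. In the promoters of mitosis genes the order was the other way about, with 75.0% holding a cell cycle homology element and 3.12% an E2F element. A match describes letters in a window and does not show a binding site. Only the exact letters given were searched, so a missing match does not show that a site is absent.

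Values below are log2 fold changes of MPLA over control, taken from the authors' deposited tables (DESeq2 columns), and a gene was called higher or lower when its DESeq2 adjusted p-value over the whole table was under 0.05. The tables give no levels, no depths and no values per library, so the spread is given as the standard error (SE) that each deposited log2 value and its p-value imply, and none is given where the deposited p-value is 0. This implied SE had a median of 0.14 over the members at 4 h (0.05 to 0.39), 0.11 at 24 h (0.05 to 0.29) and 0.08 at 3 d (0.05 to 0.21). All 3 comparisons use the same 3 control libraries and each was normalized on its own, so values of different times stand side by side without a test of their difference. The edgeR columns of the authors' deposited tables put the median of all tested genes at -0.97 at 4 h, -0.46 at 24 h and -0.15 at 3 d, against -0.04, -0.05 and -0.02 with DESeq2. The calls of the 2 tools also come from different tests, and which of these moved a call was not tested. After that median was taken off the edgeR values, no called member had the opposite sign to DESeq2 at any of the 3 times. That is no separate check, since the members' edgeR values differed from DESeq2 by nearly 1 constant per table. The difference ran from -0.97 to -0.91 at 4 h, -0.42 to -0.41 at 24 h and -0.16 to -0.1 at 3 d. Macrophage markers were listed in every table (8 of 8), but without levels the labelled cell type cannot be checked by how strongly they are expressed.

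At 4 h, 31 of the 44 members fell and 7 rose, with a median log2 change of -1.07, and 26 members were at least 2-fold lower. Among all tested genes 31.0% were lower and 31.8% higher, against 70.5% and 15.9% of the members. With the authors' edgeR columns 39 members were lower and 3 higher, against 50.1% and 13.5% of all genes, and the members' median was -2.01, which is 1.04 below the edgeR median of all genes. The members ran from Cdc6, the licensing ATPase, at -3.49 in the authors' deposited table (SE 0.37; 11.2-fold lower) to Rfc3, a clamp loader subunit, at 2.31 (SE 0.08; 4.98-fold higher). Cdc6 lay above 2.67% of tested genes and Rfc3 above 89.7%.

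At 24 h, 31 members were again lower and 5 higher, with a median of -0.52, and 12 were at least 2-fold lower while none was 2-fold higher. Of all tested genes 32.2% were lower and 32.4% higher, against 70.5% and 11.4% of the members. The edgeR columns gave 38 lower and 2 higher members, against 41.8% and 16.2% of all genes, and a median of -0.93, or 0.47 below that of all genes. The lowest members at 24 h were the nucleotide supply genes Rrm2, Tk1 and Dut.

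At 3 d after priming 18 members rose, 4 fell and 22 were not called, with a median of 0.14 and no member changed 2-fold. Of all tested genes 29.5% were higher and 25.8% lower, against 40.9% and 9.09% of the members. The edgeR columns gave 10 higher and 9 lower members, against 15.5% and 27.7% of all genes, with a median of 0.00, or 0.15 above that of all genes. The 3 highest members were Mcm3, Chaf1b and Mcm2, and the lowest was Tk1.

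**Figure D1:**
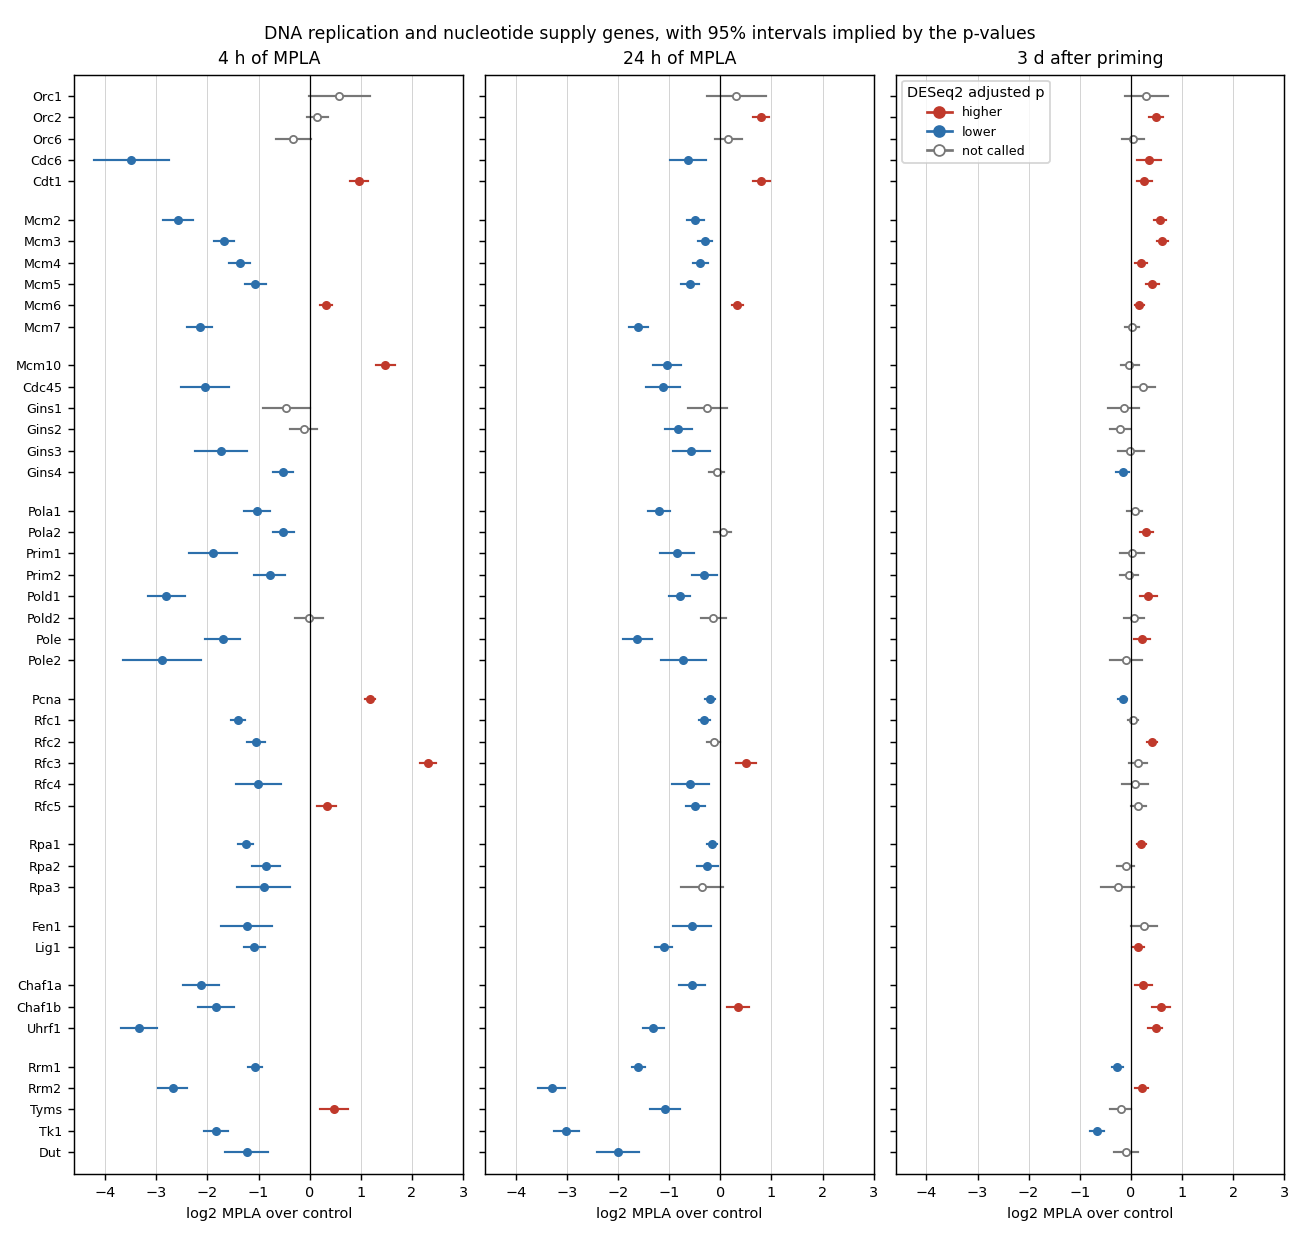
Log2 change of MPLA over control (x axis, log2 units) of the 44 members at 4 h, at 24 h and at 3 d after priming, from the authors' deposited DESeq2 columns. Points are log2 values grouped by role, bars the 95% intervals that the p-values imply, and colours the call at an adjusted p under 0.05; 31 members are lower at 4 h and at 24 h, and 18 are higher at 3 d.

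Markers of several cell types moved beside these counts. Of 5 markers of myeloid progenitors, cells that divide and precede macrophages in marrow, the authors' deposited table for 4 h had 2 lower, Kit (-1.42, SE 0.39) and Cd34 (-0.89, SE 0.13). In the table for 24 h 3 of the 5 fell, Cd34 (-5.81) and Kit (-4.30) in the authors' deposited values, and Prtn3, which with Ctsg and Flt3 was listed at 0 in the treated libraries. In that for 3 d Cd34 (-0.98) and Kit (-0.77) fell in the authors' deposited values. Of 8 macrophage markers 1 fell and 6 rose at 4 h, 4 fell and 4 rose at 24 h, and 3 fell and 5 rose at 3 d, and 5, 5 and 3 were lower with edgeR. Csf1r, the M-CSF receptor, read -1.01, -1.52 and -0.54, and Lyz2, a lysozyme, read 0.02 (not called), -1.50 and -1.43, in the authors' deposited tables. Other macrophage markers were called higher each time with DESeq2 in the authors' deposited tables. These were Fcgr1 (3.07, 3.7 and 0.98), Adgre1 (1.22, 2.15 and 1.17), Cd14 (2.34, 1.05 and 1.17) and Itgam (0.24, 0.31 and 0.37). With edgeR Itgam was lower at 4 h and 24 h.

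Among 6 dendritic cell markers 4 rose at 4 h, led by Xcr1 (3.93, SE 0.37) in the authors' deposited table, but with edgeR 1 was higher and 1 lower. At 24 h 1 rose and 2 fell, and at 3 d 2 fell, with Itgax at -2.32 (SE 0.08) in the authors' deposited table. Of the B cell markers Ighm, the heavy chain of immunoglobulin M, fell each time (-1.75, -8.98 and -6.42 in the authors' deposited tables), and Cd79b was lower at 24 h and higher at 3 d. Among 6 stromal markers 3 rose at 4 h, Lum, Dcn and Pdgfra, 2 at 24 h, Lum and Dcn, and 1 at 3 d, Dcn, all listed at 0 in the controls. Of the neutrophil markers Camp alone was called, higher at 24 h (3.49, SE 0.90) and 3 d (1.43, SE 0.48) in the authors' deposited tables. With edgeR the authors' deposited values of Camp were 3.61 and 2.97, also called higher. Of the T or NK cell markers Klrb1c alone was called, lower at 24 h and listed at 0 in the treated libraries, and no erythroid marker was called. The part of any of these cell types in the replication gene results was not tested.

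Each role below holds few genes, and its counts stand beside the shares of all genes. With DESeq2 these shares were 31.0% lower and 31.8% higher at 4 h, 32.2% and 32.4% at 24 h, and 25.8% and 29.5% at 3 d. With edgeR they were 50.1% and 13.5%, 41.8% and 16.2%, and 27.7% and 15.5%. Of the 5 origin recognition and licensing genes, Orc1, Orc2, Orc6, Cdc6 and Cdt1, Cdc6 fell and Cdt1 rose at 4 h with DESeq2, whereas with edgeR Orc2, Orc6 and Cdc6 were lower and none was higher. At 24 h 2 rose and 1 fell (2 and 2 with edgeR), and at 3 d 3 rose and none fell (2 and none with edgeR). Cdc6, which with the origin recognition complex loads the MCM helicase, read -3.49, -0.63 and 0.35 (SE 0.37, 0.18 and 0.12) at 4 h, 24 h and 3 d in the authors' deposited tables, and at 3 d it lay above 78.3% of tested genes. Cdt1, its partner in MCM loading, read 0.97, 0.80 and 0.26 (SE 0.09, 0.08 and 0.08) in the authors' deposited tables and was called higher each time. With edgeR the authors' deposited value of Cdt1 was 0.04 at 4 h and 0.14 at 3 d, not called, and 0.39 at 24 h, called higher. With DESeq2 the 2 loading factors thus stood 11.2-fold below and 1.96-fold above the control in the same libraries at 4 h.

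Orc2, a core subunit of the origin recognition complex, was not called at 4 h (0.14, SE 0.10) and rose at 24 h (0.80, SE 0.08) and at 3 d (0.49, SE 0.07) in the authors' deposited tables. With edgeR it was called lower at 4 h (-0.79) and higher at 24 h (0.38) and 3 d (0.36) in the authors' deposited tables. Of its exonic bases 29.82% lie under exons of the opposite strand, and the sources used here do not give the strand setting of the authors' counting. Orc1, the ATPase subunit of the complex, was not called, at 0.58, 0.31 and 0.30 (SE 0.30, 0.29 and 0.21) in the authors' deposited tables. Orc6 was also not called with DESeq2, at -0.32, 0.16 and 0.04 (SE 0.17, 0.14 and 0.11) in the authors' deposited tables. With edgeR Orc6 was called lower at 4 h (-1.26) and 24 h (-0.26) in the authors' deposited tables.

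Of the 6 MCM helicase genes, which encode the ring that unwinds the DNA, 5 fell and Mcm6 rose at 4 h and likewise at 24 h, and 5 rose at 3 d, while with edgeR 6 fell at 4 h, 5 fell and none rose at 24 h, and 3 rose at 3 d. Mcm2 was the lowest at 4 h in the authors' deposited table (-2.58, SE 0.15; 5.96-fold lower), and read -0.49 at 24 h and 0.57 at 3 d. Mcm7 was next at -2.15 (SE 0.12) and the lowest at 24 h (-1.60, SE 0.10; 3.03-fold lower) in the authors' deposited tables. It was the only MCM gene not called at 3 d (0.02, SE 0.07 in the authors' deposited table), and 16.48% of its 50-base windows also occur in transcripts of other loci, Gm5487 the most.

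Mcm3 read -1.67 (SE 0.10) at 4 h, -0.29 (SE 0.07) at 24 h and 0.61 (SE 0.05; 1.52-fold higher) at 3 d in the authors' deposited tables, above 88.0% of tested genes at the last time. Mcm4 (-1.37, -0.39 and 0.20) and Mcm5 (-1.07, -0.59 and 0.42) took the same 3 calls in the authors' deposited tables. Mcm6 read 0.32, 0.33 and 0.16 (SE 0.06, 0.05 and 0.05) in the authors' deposited tables, above all its partners at 4 h and 24 h and within their range at 3 d. Its sign turned with edgeR, where the authors' deposited values were -0.61 at 4 h and -0.08 at 24 h. Relative to the edgeR median of all genes, Mcm6 lay 0.39 above at 24 h. With DESeq2 subunits of this single ring therefore ranged from 5.96-fold lower to 1.25-fold higher at 4 h, whereas with edgeR all 6 were called lower.

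**Figure D2:**
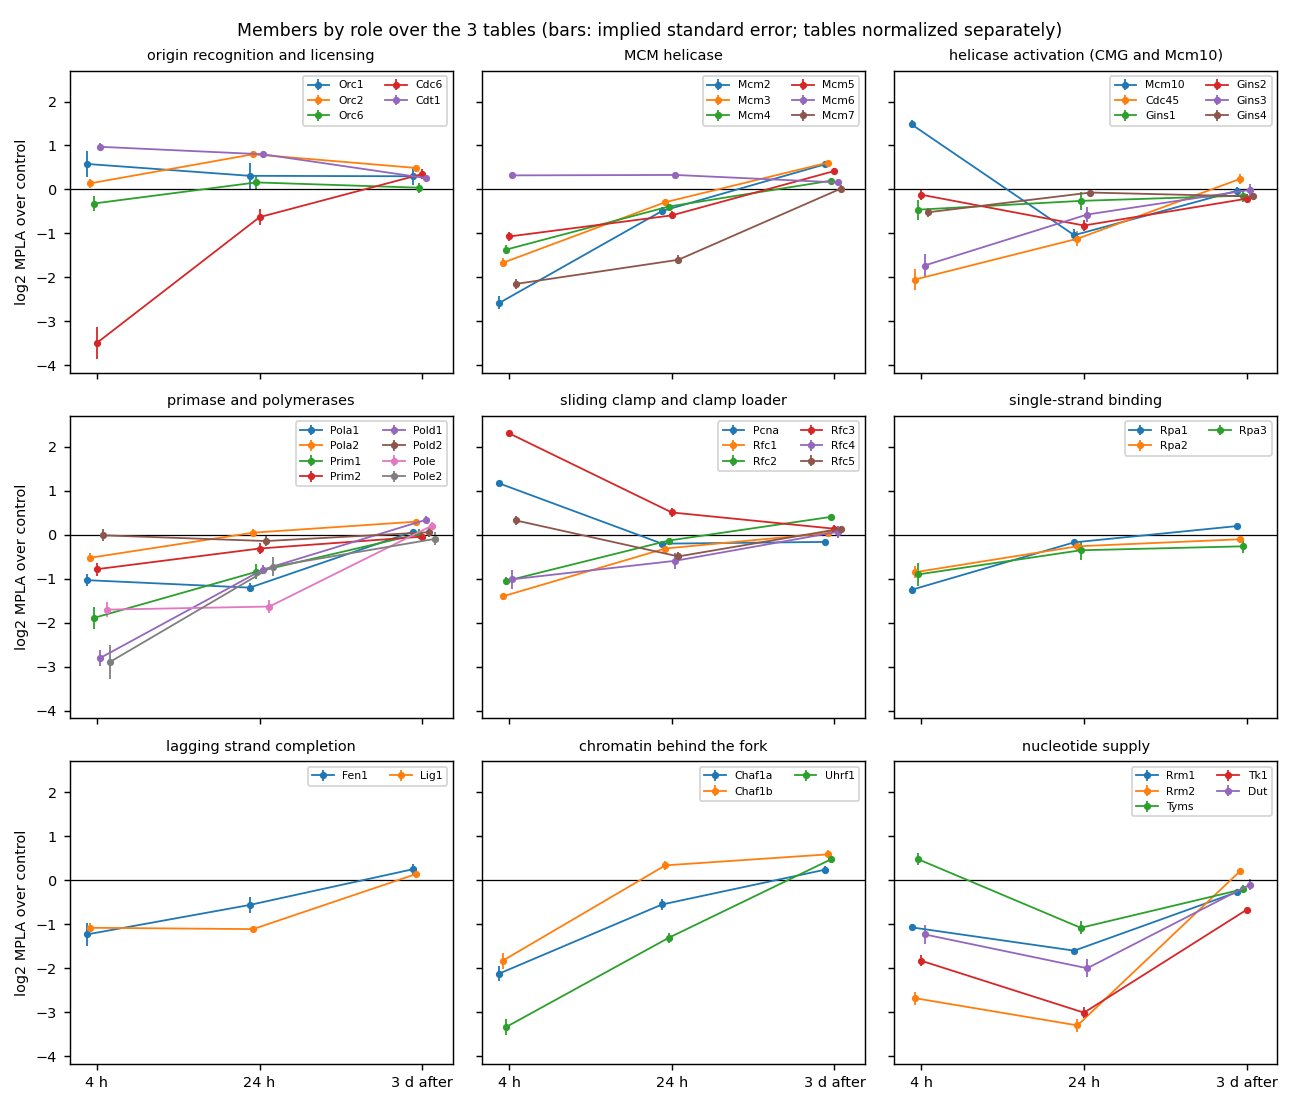
Log2 change of MPLA over control (y axis, log2 units) of each member at 4 h, 24 h and 3 d (x axis), 1 panel for each of the 9 roles, with values from the authors' deposited DESeq2 columns. Bars are implied standard errors. Lines join the values of 1 gene for reading only. Cdc6, Mcm6, Mcm10, Rfc3, Pcna and Tyms lie apart from most of their role at 4 h (Mcm6 and Tyms are negative with edgeR). The 5 nucleotide supply genes are lower at 24 h than at 4 h with DESeq2, but Rrm1 is equal at both times with edgeR.

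Of the 6 genes that switch the helicase on, 3 fell and 1 rose at 4 h, 4 fell at 24 h, and 1 fell at 3 d (5 and 1, 6, and 2 with edgeR). Mcm10, a factor needed to start unwinding, rose at 4 h (1.48, SE 0.09; 2.79-fold higher), fell at 24 h (-1.04, SE 0.14; 2.06-fold lower) and was not called at 3 d (-0.03, SE 0.09) in the authors' deposited tables. Both calls held with edgeR, at 0.55 and -1.46 in the authors' deposited tables. Cdc45, the helicase's partner, was the lowest of the role at 4 h (-2.05, SE 0.24) and 24 h (-1.12, SE 0.17) and the highest at 3 d (0.24, SE 0.11, not called) in the authors' deposited tables.

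The 4 subunits of GINS, the other helicase partner, differed in their calls. Gins3 fell at 4 h (-1.73, SE 0.26) and 24 h (-0.57, SE 0.18) and was not called at 3 d (-0.01, SE 0.13), and Gins4 fell at 4 h (-0.52, SE 0.10) and at 3 d (-0.16, SE 0.07) with -0.07 (SE 0.08, not called) at 24 h, in the authors' deposited tables. With DESeq2 Gins2 fell at 24 h alone (-0.82, SE 0.13, against -0.12, SE 0.13, at 4 h and -0.21, SE 0.10, at 3 d) in the authors' deposited tables, and 67.32% of its exonic bases lie under opposite-strand exons. Gins1 was not called with DESeq2, at -0.46, -0.26 and -0.14 (SE 0.23, 0.20 and 0.15) in the authors' deposited tables. With edgeR all 4 subunits were called lower at 4 h and at 24 h, and Gins2 and Gins4 also at 3 d. The authors' deposited edgeR values of Gins2 were -1.06, -1.23 and -0.34.

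Of the 8 primase and polymerase genes, 7 fell at 4 h and 6 at 24 h, none rose at either time, and 3 rose at 3 d (with edgeR 8, 8, and 2 higher beside 1 lower). Pole2, the second subunit of polymerase epsilon, was the lowest at 4 h (-2.89, SE 0.39; 7.42-fold lower), and Pold1, the catalytic subunit of polymerase delta, was close to it (-2.80, SE 0.18; 6.97-fold lower) in the authors' deposited table. Pole, the catalytic subunit of polymerase epsilon, read -1.70 (SE 0.17) at 4 h and was the lowest at 24 h (-1.63, SE 0.15; 3.09-fold lower) in the authors' deposited tables. Pola1, the catalytic subunit of polymerase alpha, read -1.03 (SE 0.13) at 4 h and -1.20 (SE 0.11) at 24 h in the authors' deposited tables. Pola1 and Pole thus stood 2-fold or more below the control at both times, while Pold1 and Pole2 lay at -0.79 (SE 0.10) and -0.72 (SE 0.22) at 24 h in the authors' deposited table.

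The primase subunits Prim1 (-1.89, SE 0.24) and Prim2 (-0.78, SE 0.15) were both lower at 4 h in the authors' deposited table. They fell at 24 h too, to -0.84 (SE 0.17) and -0.31 (SE 0.12) in the authors' deposited table. Pold2, an accessory subunit of polymerase delta, was not called with DESeq2 at any time (-0.01, -0.14 and 0.06, SE 0.14, 0.12 and 0.10, in the authors' deposited tables). With edgeR Pold2 was called lower at 4 h (-0.93) and 24 h (-0.55) in the authors' deposited tables. At 3 d the higher genes of this role were Pold1 (0.34, SE 0.08), Pola2, the accessory subunit of polymerase alpha (0.30, SE 0.07), and Pole (0.21, SE 0.08) in the authors' deposited table. Pole2 read lowest then at -0.09 (SE 0.15, not called), and Pola2, which had fallen at 4 h (-0.52, SE 0.10), was highest at 24 h at 0.05 (SE 0.08, not called), in the authors' deposited tables. At 24 h edgeR called Pola2 lower, at -0.37 in the authors' deposited table. Pola1 (0.07), Prim1 (0.02) and Prim2 (-0.04) were not called at 3 d in the authors' deposited table, with 95% intervals between -0.22 and 0.25.

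The clamp and its loader held 3 of the 7 members that rose at 4 h (2 of 3 with edgeR). Rfc3 was 4.98-fold higher at 4 h (2.31, SE 0.08), 1.42-fold higher at 24 h (0.51, SE 0.10) and not called at 3 d (0.14, SE 0.09) in the authors' deposited tables. Its 4 partners in the same 5-subunit loader read -1.40 (Rfc1), -1.05 (Rfc2), -1.01 (Rfc4) and 0.33 (Rfc5) at 4 h in the authors' deposited table, with SE of 0.07, 0.09, 0.22 and 0.10. Rfc3 was also called higher at 4 h with edgeR (1.38 in the authors' deposited table), whereas Rfc5 turned to -0.60 and was called lower there. At 24 h the authors' deposited edgeR value of Rfc3 was 0.09, not called.

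Pcna, the sliding clamp that holds the polymerases on DNA, was 2.26-fold higher at 4 h (1.17, SE 0.05) and lower at 24 h (-0.20, SE 0.05) and 3 d (-0.16, SE 0.05) in the authors' deposited tables. With edgeR it was still called higher at 4 h, at 0.24 in the authors' deposited table. Of its 50-base windows 19.1% also occur in transcripts of other loci, Pcna-ps2 the most, so its values are uncertain. Among the loader genes at 24 h, Rfc4 (-0.59, SE 0.18), Rfc5 (-0.49, SE 0.10) and Rfc1 (-0.31, SE 0.05) fell and Rfc2 was not called (-0.13, SE 0.07) in the authors' deposited table. At that time edgeR called Rfc2 lower, at -0.55 in the authors' deposited table. At 3 d Rfc2 alone rose (0.41, SE 0.05), and Rfc1 (0.04), Rfc4 (0.07) and Rfc5 (0.14) were not called, in the authors' deposited table.

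Single-strand binding and lagging strand genes were called lower at 4 h, 5 of 5, beside 31.0% of all tested genes with DESeq2 and 50.1% with edgeR. The 3 subunits of replication protein A, which coats unwound DNA, read -1.25 (Rpa1, SE 0.08), -0.90 (Rpa3, SE 0.27) and -0.85 (Rpa2, SE 0.14) at 4 h in the authors' deposited table. At 24 h Rpa1 (-0.17, SE 0.05) and Rpa2 (-0.26, SE 0.11) were lower and Rpa3 was not called (-0.35, SE 0.21) in the authors' deposited table. There edgeR called Rpa3 lower, at -0.77 in the authors' deposited table. At 3 d Rpa1 was higher (0.20, SE 0.05), Rpa2 was not called (-0.10, SE 0.09) and Rpa3 read lowest at -0.26 (SE 0.16, not called), in the authors' deposited table.

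Lig1, the ligase that joins the short fragments of the lagging strand, read -1.08 (SE 0.10) at 4 h and -1.11 (SE 0.08) at 24 h, and rose by a small amount at 3 d (0.14, SE 0.06), in the authors' deposited tables. That call at 3 d was lost with edgeR, at 0.01 in the authors' deposited table. Fen1, the nuclease that trims those fragments, read -1.23 (SE 0.26), -0.56 (SE 0.19) and 0.25 (SE 0.13, not called) in the authors' deposited tables, with 84.19% of its exonic bases under opposite-strand exons.

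The 3 genes that restore chromatin behind the fork all fell at 4 h and all rose at 3 d (2 of the 3 with edgeR). Uhrf1, which brings the DNA methyltransferase Dnmt1 to newly copied DNA, was 10.1-fold lower at 4 h (-3.34, SE 0.18), 2.48-fold lower at 24 h (-1.31, SE 0.11) and 1.39-fold higher at 3 d (0.48, SE 0.07) in the authors' deposited tables. In Uhrf1, 15.39% of 50-base windows recur in transcripts of other loci, Gm5648 the most. Chaf1a and Chaf1b, subunits of the histone chaperone CAF-1, read -2.12 (SE 0.18) and -1.83 (SE 0.18) at 4 h in the authors' deposited table.

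At 24 h the CAF-1 subunits were called in opposite directions, Chaf1a lower (-0.55, SE 0.13) and Chaf1b higher (0.34, SE 0.11), in the authors' deposited table. With edgeR Chaf1b turned to -0.07 in the authors' deposited table and was not called. At 3 d Chaf1b (0.59, SE 0.09; 1.5-fold higher) lay above Chaf1a (0.24, SE 0.09) in the authors' deposited table, and the call of Chaf1a was lost with edgeR. In Chaf1a, 52.5% of exonic bases lie under opposite-strand exons.

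With DESeq2 each of the 5 nucleotide supply genes read lower at 24 h than at 4 h, and all 5 fell at 24 h by at least 2-fold. That order depended on the tool for Rrm1, which read -2.01 at both times with edgeR. Rrm2 read -3.62 and -3.72 there, all in the authors' deposited tables. Rrm2, the small subunit of ribonucleotide reductase, whose level is known to peak in S phase, was 6.43-fold lower at 4 h (-2.68, SE 0.15) and 9.83-fold lower at 24 h (-3.30, SE 0.14) in the authors' deposited tables. At 3 d Rrm2 stood slightly above the control (0.21, SE 0.07) in the authors' deposited table, a call that edgeR did not make (0.08). Rrm1, the large subunit of the same enzyme, read -1.07, -1.60 and -0.27 (SE 0.07, 0.07 and 0.06) in the authors' deposited tables and was called lower each time.

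Tk1, the thymidine kinase that salvages thymidine in dividing cells, was 3.56-fold lower at 4 h (-1.83, SE 0.12), 8.05-fold lower at 24 h (-3.01, SE 0.13) and 1.59-fold lower at 3 d (-0.67, SE 0.07) in the authors' deposited tables. It was the lowest member at 3 d, above 11.4% of tested genes. The dUTPase gene Dut, whose enzyme keeps uracil out of DNA, read -1.23 (SE 0.21) at 4 h, -2.00 (SE 0.21; 3.99-fold lower) at 24 h and -0.10 (SE 0.12, not called) at 3 d in the authors' deposited tables. Tyms, the thymidylate synthase, rose at 4 h with DESeq2 alone (0.48, SE 0.14), fell at 24 h (-1.08, SE 0.15) and was not called at 3 d (-0.20, SE 0.10) in the authors' deposited tables. The value at 4 h turned to -0.45 with edgeR, called lower, in the authors' deposited table.

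**Figure D3:**
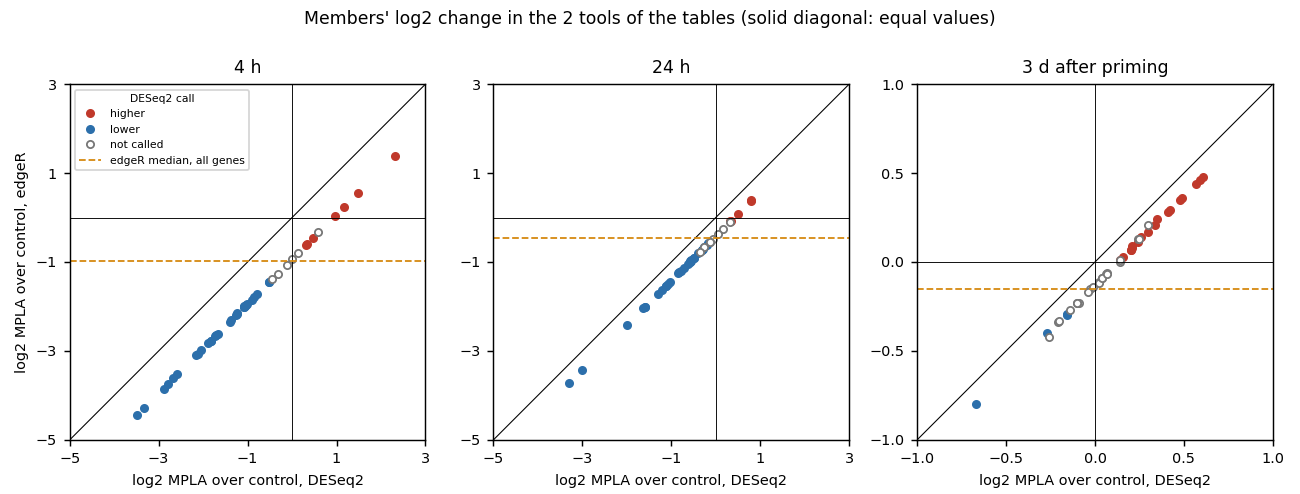
Log2 change of MPLA over control of the 44 members from the authors' deposited edgeR columns (y axis, log2 units) against their DESeq2 columns (x axis, log2 units) at 4 h, 24 h and 3 d. Points are genes coloured by the DESeq2 call, the solid diagonal marks equal values and the dashed line the edgeR median of all tested genes (-0.97, -0.46 and -0.15); the members lie along a line parallel to the diagonal, below it.

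The calls at 3 d were small changes, and the tool decided many of them. Chaf1b, Mcm2, Mcm3, Mcm5, Orc2, Rfc2 and Uhrf1 were called higher, and Tk1 lower, by all of DESeq2, edgeR and baySeq in the authors' deposited tables. The baySeq columns give no direction, so a baySeq call here took the sign of the DESeq2 value and is no separate evidence on direction. Cdt1, Mcm4, Mcm6, Pole, Rpa1, Lig1, Chaf1a and Rrm2 were higher at 3 d with DESeq2 and not with edgeR. Gins2, Prim2, Rpa2, Rpa3 and Tyms were lower at 3 d with edgeR and not with DESeq2. At 4 h Mcm10, Pcna and Rfc3 were called higher by all 3 tools, and at 24 h Cdt1 and Orc2 were. Without the 7 members named above as sharing sequence or lying under opposite-strand exons, no count of higher or lower members moved by 1.5 times.

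The calls were also read against the promoters shown above. Of the 14 members with an E2F element, 10 fell and 3 rose at 4 h, 10 fell and 3 rose at 24 h, and 8 rose and none fell at 3 d. Of the 23 members with a promoter and no such match, 16 fell and 4 rose at 4 h, 17 fell and 2 rose at 24 h, and 7 rose and 3 fell at 3 d. With edgeR the members with an element were 11 lower and 1 higher at 4 h, 10 and 1 at 24 h, and none lower and 5 higher at 3 d. Those without were 21 and 2, 21 and 1, and 6 lower and 4 higher. The shares over all tested genes were those given above, 31.0% lower and 31.8% higher at 4 h, 32.2% and 32.4% at 24 h, and 25.8% and 29.5% at 3 d with DESeq2. With edgeR the shares of all genes were 50.1% lower and 13.5% higher at 4 h, 41.8% and 16.2% at 24 h, and 27.7% and 15.5% at 3 d. The difference between members with and without a match was not tested.

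Other genes of the same processes were counted from lists around the members. The shares of all tested genes to set beside them were 31.0% lower and 31.8% higher at 4 h. They were 32.2% and 32.4% at 24 h, and 25.8% and 29.5% at 3 d. With edgeR the shares of all genes were 50.1% and 13.5%, 41.8% and 16.2%, and 27.7% and 15.5%. Of 37 other replisome and licensing genes, 23 fell and 11 rose at 4 h (median -0.70), 17 fell and 12 rose at 24 h (median -0.28), and 8 fell and 12 rose at 3 d (median 0.03). As shares of this list, 62.2% fell and 29.7% rose at 4 h, 45.9% and 32.4% at 24 h, and 21.6% and 32.4% at 3 d. The edgeR columns gave 31 lower and 3 higher at 4 h, 26 and 8 at 24 h, and 16 and 8 at 3 d. Clspn, a mediator of the replication checkpoint, was lowest at 4 h (-4.49, SE 0.29), followed by Dscc1, part of an alternative clamp loader (-3.45, SE 0.69), in the authors' deposited table. Mcmbp, an MCM-binding protein (2.08), and Orc4, an origin recognition subunit (1.5, SE 0.09), were highest in that authors' deposited table. At 24 h the topoisomerase Top2a (-3.19) and Ticrr, an origin firing factor (-2.56, SE 0.23), were lowest, and the histone chaperone Asf1a (2.04, SE 0.11) and the fork protection gene Timeless (1.69, SE 0.10) highest, in the authors' deposited table. At 3 d Asf1b (-0.62, SE 0.07) and Gmnn, the inhibitor of Cdt1 (-0.57, SE 0.08), were lowest, and Timeless (0.63, SE 0.10) and Donson (0.57, SE 0.11) highest, in the authors' deposited table.

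Of 38 other nucleotide synthesis and salvage genes, 22 fell and 9 rose at 4 h (median -0.40), 16 fell and 14 rose at 24 h (median 0.00), and 11 fell and 14 rose at 3 d (median 0.12). As shares, 57.9% fell and 23.7% rose at 4 h, 42.1% and 36.8% at 24 h, and 28.9% and 36.8% at 3 d. The last 2 pairs stand beside 32.2% and 32.4%, and 25.8% and 29.5%, of all tested genes. With edgeR there were 33 lower and 3 higher at 4 h, 29 and 6 at 24 h, and 15 and 12 at 3 d. Samhd1, which degrades deoxynucleotides, was highest at 4 h (3.61) and second at 24 h (2.05) in the authors' deposited tables. Mthfd2, a mitochondrial folate enzyme, was second at 4 h (2.34) and highest at 24 h (3.13) and 3 d (1.35) in the authors' deposited tables, and Ctps, a CTP synthase, was second at 3 d (0.94, SE 0.15). Dctd (-2.31, SE 0.71) and Umps, a pyrimidine synthesis enzyme (-2.25, SE 0.14), were lowest at 4 h, and Adssl1 (-2.61, SE 0.07) and the purine salvage gene Hprt (-1.28, SE 0.05) at 24 h, in the authors' deposited tables. At 3 d Dctpp1 (-0.55, SE 0.11) and Guk1, a guanylate kinase (-0.53, SE 0.08), were lowest by the authors' deposited values.

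Of 33 regulators of the G1 to S transition, 17 fell and 12 rose at 4 h (median -0.29), 16 fell and 13 rose at 24 h (median -0.22), and 9 fell and 15 rose at 3 d (median 0.11). As shares, 51.5% fell and 36.4% rose at 4 h, 48.5% and 39.4% at 24 h, and 27.3% and 45.5% at 3 d. By edgeR there were 23 lower and 8 higher at 4 h, 22 and 9 at 24 h, and 12 and 14 at 3 d. E2f2, an activating E2F factor (-5.70, SE 0.45), and E2f7, a repressing one (-4.54, SE 0.45), were lowest at 4 h in the authors' deposited table. Ccnd2, cyclin D2, was highest each time, at 7.44, 4.45 and 2.42 in the authors' deposited tables. Cdkn1a, the cyclin-dependent kinase inhibitor p21, was second at 4 h (3.85) in the authors' deposited table. At 24 h Ccna2, cyclin A2 (-5.70, SE 0.23), and E2f7 (-4.62, SE 0.38) were lowest and E2f5 (1.89, SE 0.10) second highest, and at 3 d Cdkn2c (-1.18, SE 0.06) and Ccna2 (-1.0, SE 0.06) were lowest and the inhibitor Cdkn1c (2.02, SE 0.17) second highest, in the authors' deposited tables.

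Of 38 mitosis genes, which act after replication is done, 36 fell and 2 rose at 4 h (median -1.87), 37 fell and 1 rose at 24 h (median -3.91), and all 38 fell at 3 d (median -0.85). The edgeR columns gave 38, 37 and 38 lower, and the genes called higher with DESeq2 at 4 h, Tpx2 (0.74) and Cenpe (0.21), were called lower there in the authors' edgeR columns. The members' medians beside them were -1.07, -0.52 and 0.14. Aspm, a spindle pole gene (-4.29, SE 0.18), and Kif23, a motor of cell division (-3.85, SE 0.13), were lowest at 4 h, and Ccnb2, cyclin B2 (-7.76, SE 0.41), and Aspm (-7.67, SE 0.40) at 24 h, in the authors' deposited tables. At 3 d Cenpa, the histone of the centromere (-2.69), and Ccnb2 (-1.55, SE 0.07) were lowest, and Incenp (-0.21, SE 0.05) and Mad2l1 (-0.39, SE 0.07) highest, in the authors' deposited table. At 24 h the spindle factor Tpx2 was the 1 gene that rose (0.68, SE 0.06), and Incenp was next (-0.41, SE 0.06), in the authors' deposited table. Mitosis genes thus had a lower median than the replication genes at each time, a difference described here without a test.

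Of 38 DNA damage checkpoint and repair genes, 28 fell and 6 rose at 4 h (median -1.39), 24 fell and 5 rose at 24 h (median -0.52), and 6 fell and 12 rose at 3 d (median 0.09). As shares, 73.7% fell and 15.8% rose at 4 h, 63.2% and 13.2% at 24 h, and 15.8% and 31.6% at 3 d. In the edgeR columns there were 36 lower and 2 higher at 4 h, 31 and 4 at 24 h, and 13 and 8 at 3 d. The recombination genes Brca2 (-4.18, SE 0.35) and Brca1 (-4.15, SE 0.25) were lowest at 4 h, and the damage kinase Atm (2.28, SE 0.07) and Mdm2, which restrains p53 (1.49, SE 0.04), highest, in the authors' deposited table. At 24 h Fancd2, of the crosslink repair pathway (-3.42, SE 0.23), and Rad51ap1 (-2.50, SE 0.21) were lowest, and the mismatch repair gene Msh3 (1.95, SE 0.10) and Mdm2 (1.52) highest, in the authors' deposited table. At 3 d Fancm (-0.54, SE 0.10) and Brca2 (-0.47, SE 0.10) were lowest, and Mdm2 (0.98, SE 0.04) and the checkpoint kinase Chek1 (0.85, SE 0.17) highest, in the authors' deposited table.

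**Figure D4:**
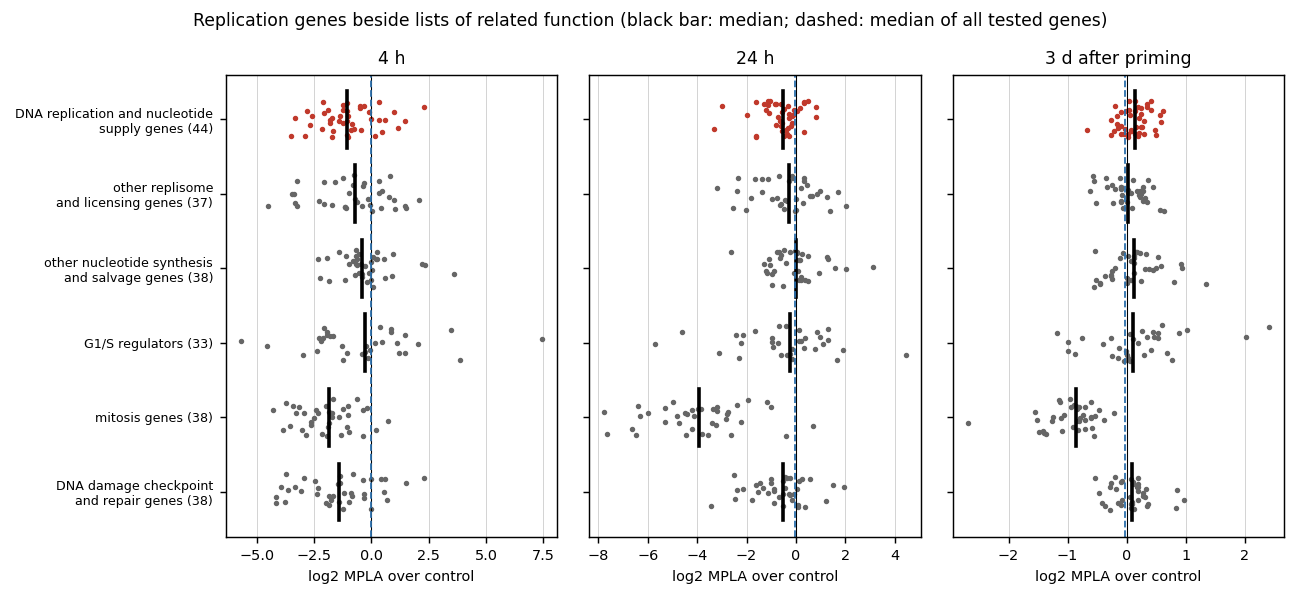
Log2 change of MPLA over control (x axis, log2 units, with its own range in each panel) of the 44 members and of 5 lists of neighbouring functions at 4 h, 24 h and 3 d, from the authors' deposited DESeq2 columns. Each point is a gene and each black bar the list's median, with the dashed line at the median of all tested genes; the mitosis genes have medians of -1.87, -3.91 and -0.85, against -1.07, -0.52 and 0.14 for the members.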

How the data were processed

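Polyadenylated RNA of 12 libraries was sequenced with a stranded kit, per the labels' protocols. Per the submitters' processing notes, the authors used build mm10 and the tools TopHat2, HTSeq, DESeq2, DESeq, edgeR and bcl2fastq, whose versions are not given. Counting settings, library depth and the kind of test behind the authors' DESeq2 p-values are not given in the sources used here. The files are 3 tables, each of 1 MPLA group against the same controls. They list 21893, 21923 and 23248 genes, of which 17523, 16442 and 15111 have an adjusted p-value from the authors' DESeq2 step.

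Per the file headers, the authors gave for each gene log2 fold changes, p-values and adjusted p-values from DESeq2 and edgeR, a raw log2 ratio, and from baySeq a likelihood score with its adjusted form, an error rate read as an adjusted p-value. Rank scores deposited by the authors were not used. The deposited log2 values are control over MPLA and were turned here. That direction was read from the group order and from Tnf, Il6, Cxcl10 and Nos2, which are induced by lipid A and had deposited values of -8.19 to -12.55 at 4 h.

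A call was the authors' DESeq2 adjusted p-value under 0.05 over the whole table. Implied SE is the log2 value divided by the normal quantile of its p-value. Library tests planned for count files were not run, since no counts per library were used. Alternatives were the authors' edgeR columns, Benjamini-Hochberg adjustment of every DESeq2 p-value of the authors, their baySeq error rate under 0.05, all 3 tools together and a threshold of 0.01. Values are given for the 3 highest and 3 lowest members at each time, the extremes of each role, and the 2 highest and 2 lowest called genes of each other list, and the remaining members are given by role. The members and lists were chosen with earlier results of these data known. Shared sequence, opposite-strand overlap and gene spans came from GENCODE mouse transcripts, and promoters from RefSeq. Scripts used Python 3.11.15, numpy 2.4.6, pandas 2.3.3 and scipy 1.17.1, and were tested on simulated data.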

Additional observations from a re-analysis of the deposited data

How the results depend on the processing

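With the authors' edgeR columns the members called higher were 3 at 4 h, 2 at 24 h and 10 at 3 d, in place of 7, 5 and 18, and those called lower at 3 d were 9 in place of 4. The baySeq error rate under 0.05 gave 4, 3 and 7 higher members at the 3 times and 1 lower at 3 d, and calls by all 3 tools together gave 3, 2 and 7 higher and 1 lower at 3 d. Direction in the baySeq calls was that of the DESeq2 value. The counts of members lower at 4 h and 24 h stayed within 1.5 times the main count under each of these. All 6 counts did so with Benjamini-Hochberg adjustment of every p-value, with a threshold of 0.01 and without the 7 uncertain members, the last an alternative chosen after seeing the data. Of the 132 single values, edgeR turned the sign of 5 calls, Mcm6 (-0.61), Rfc5 (-0.60) and Tyms (-0.45) at 4 h and Mcm6 (-0.08) and Chaf1b (-0.07) at 24 h, ended 10 calls in the same direction and added 17. With the edgeR median of all genes taken off, also chosen after seeing the data, 2 values moved by more than their implied SE, Mcm6 (0.39) and Pcna (-0.15) at 24 h. For the members the edgeR columns differ from those of DESeq2 by nearly 1 constant per table and also in their test. Which of these moved a call was not tested. Over all genes the median difference was -0.94, -0.41 and -0.13, but some marker genes lay far from it. At 3 d Dcn read 4.7 with DESeq2 and 9.81 with edgeR, and Camp 1.43 and 2.97, in the authors' deposited table. No paired analysis was possible because the tables hold no values per library, and for that reason no library could be left out either. Depth per library and expression levels were not known, so which members the depth limits cannot be said beyond their implied SE. If the edgeR values are scaled by depth, the raw ratios imply MPLA over control depths of 0.859 at 4 h, 0.934 at 24 h and 2.32 at 3 d. The part of this greater depth in the smaller implied SE and the small called changes at 3 d was not tested.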
